A study of Mus musculus with 24 samples.

Results

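The brain is described here as 1 of 4 tissues taken from wild-type (WT) male mice, by setting the 3 WT brain arrays against the 9 WT arrays of liver, heart and skeletal muscle. The members are samples, and they were chosen by tissue and genotype labels only: 3 brain arrays among 12 WT arrays, out of 24 arrays in all. The other 12 arrays hold the same tissues of *Rap1* KI/KI mice (MUT in the labels), which carry the I312R change in *Terf2ip*, the gene for the telomere protein RAP1, in both copies. A gene is called higher or lower in brain only where it differed from the liver, from the heart and from the muscle, each in the same direction with a limma adjusted p under 0.05, so that a gene set apart only from the mean of the other tissues is not counted.

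The WT mice came from a line back-crossed 4 times to C57BL/6N, and each of the 3 mice gave all 4 tissues. Mouse 1 was 5 months old, and mice 2 and 3 were 2 months old. Brain and liver RNA was prepared with an RNeasy Mini kit after disruption with glass beads, and heart and muscle RNA with an RNeasy fibrous tissue kit after disruption with zirconia beads, so for the comparison of brain with heart and muscle the kit and the tissue cannot be told apart. Each RNA was labelled with Cy3 and hybridised to an Agilent 1-colour mouse array. *Terf2ip* itself lay between 0.69 and 2.07 on the 24 arrays, on the scale explained below, and since the change is a point mutation its probe does not check the genotype. Brain 1 lay on slide 1 with the livers, brains 2 and 3 lay on slide 2 with hearts 1 and 2, and heart 3 and the muscles lay on slide 3. Brain and muscle shared no slide, and among the brains the slide and the age coincide.

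The brain differs from other organs by its neurons, which carry electrical signals along axons and pass them on at synapses, where vesicles release a transmitter onto receptors of the next cell. Astrocytes, oligodendrocytes that wrap axons in myelin, microglia, the choroid plexus and a tight vascular barrier support the neurons. Brain tissue draws its energy mainly from glucose, and it is poor in fibrous matrix and in antigen presentation compared with most organs. In RNA from a whole tissue, fewer cells of a type and less RNA per cell cannot be told apart.

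All levels below are log2 signal relative to the 75th percentile of the same array, so 0 marks that percentile, and a difference of 1 is a 2-fold difference. A gene is represented by the probe with the highest mean over the 12 WT arrays. Of 55681 probes, 38539 were well above background on all 3 arrays of 1 or more tissues and were tested, and they represented 17631 named genes. Of these genes 1218 passed this filter through the brain alone, and such a gene had little room to be called lower in brain. Between 56.5% and 72.7% of the probes were well above background on a WT array. The 75th percentile lay between 880.5 and 1231 intensity units on the brain arrays and between 470.7 and 521.3 on the muscle arrays, so low signals were closer to background in muscle. Where a probe was not well above background on any array of a tissue, a fold is given as "at least", set against the lowest signal measured there. The number of arrays limits the precision of every value. A p-value here rests on the spread between arrays of the same tissue, pooled over the 4 tissues. That spread takes in differences between the 3 mice and, for brain and heart, between slides. The fit had no term for the mouse.

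The WT brain held 3093 genes that were higher than in each other tissue, 17.5% of the genes tested, and 3824 genes that were lower than in each, 21.7%. These shares are to be set beside every count of listed or paired genes below. With a smallest difference of at least 1 log2 unit, 2778 genes were higher, 15.8%, and 2628 were lower, 14.9%. The higher genes differed by more than the lower ones. The smallest of the 3 differences had a median of 2.75 log2 units among the higher genes, against 1.27 among the lower ones. The larger of the sets in each single comparison was also the lower one: against the liver 5701 genes (32.3%) were higher and 7504 (42.6%) lower, against the heart 4685 (26.6%) were higher and 6739 (38.2%) lower, and against the muscle 5112 (29%) were higher and 6877 (39%) lower. The split depends on the scaling: of the probes called, 44.6% were higher in brain here, 50% after quantile normalization, 55.3% with the deposited z-scores and 35.8% after normexp background correction. The median gene was lower in brain by 0.339, 0.298 and 0.303 log2 units than in liver, heart and muscle. This shift is close to 0 with z-scores, so small differences below 0 are to be read against it.

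Seen from each tissue in the same way, 3567 genes were higher in liver than in each of the others, 1130 in heart and 1324 in muscle. The liver thus had more such genes than the brain. The brain had the most genes with no measured signal elsewhere: 642 genes were well above background on all 3 brain arrays and on none of the other 9, against 183 such genes for the liver, 36 for the heart and 41 for the muscle. Among the higher genes the tissue nearest to the brain was the heart for 1232, the muscle for 1139 and the liver for 722. The brain levels lay above all 9 other arrays for 3019 of the 3093 higher genes, and below all 9 for 3690 of the 3824 lower ones. Over all genes tested, 3356 lay above and 4270 below in this way.

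Genes measured in every tissue were ranked by the smallest of their 3 differences, and 14 of the first 15 are described here. *Kif5a*, the neuronal heavy chain of the motor that carries cargo along axons, stood near the top. Its brain levels were 8.01, 7.96 and 7.93, against -3.98 to -4.75 in liver, -0.89 to -1.80 in heart and -2.38 to -2.69 in muscle. The heart was nearest, 630.5-fold lower (9.30 ± 0.27 log2 units, limma adjusted p = 3.51e-10). *Cck*, a neuropeptide of cortical cells, lay at 7.98, 7.12 and 7.71 in brain and was 845-fold higher than in heart (9.72 log2 units), where 1 array value was dropped as an outlier spot.

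The other 12 genes fall into a few known roles. *Scg5*, a secretory granule chaperone, was 599.9-fold higher than in liver, with brain levels of 5.83, 5.73 and 5.50 and no array outside the brain above -2.94. *Pcsk2*, the convertase that cuts neuropeptide precursors and the partner of *Scg5*, was 345-fold higher than in heart. *Dlgap3* and *Mapk8ip2*, scaffolds of the postsynapse, were 374-fold and 343-fold higher than in the nearest tissue. *Zcchc18* was 732-fold and *Ly6h*, a surface protein that binds nicotinic receptors, 692-fold higher than in muscle, and *Nrsn1*, a vesicle protein of neurites, 492-fold higher than in liver. *Cnnm1*, *Lmtk3*, *Tmem59l*, *Arhgef4* and *Tspoap1* were between 345-fold and 385-fold higher. The ranking picks the largest gaps, so it follows from it that no brain level of the 14 genes overlapped with another tissue. All 14 were called higher in the MUT brain too.

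**Figure D1:**
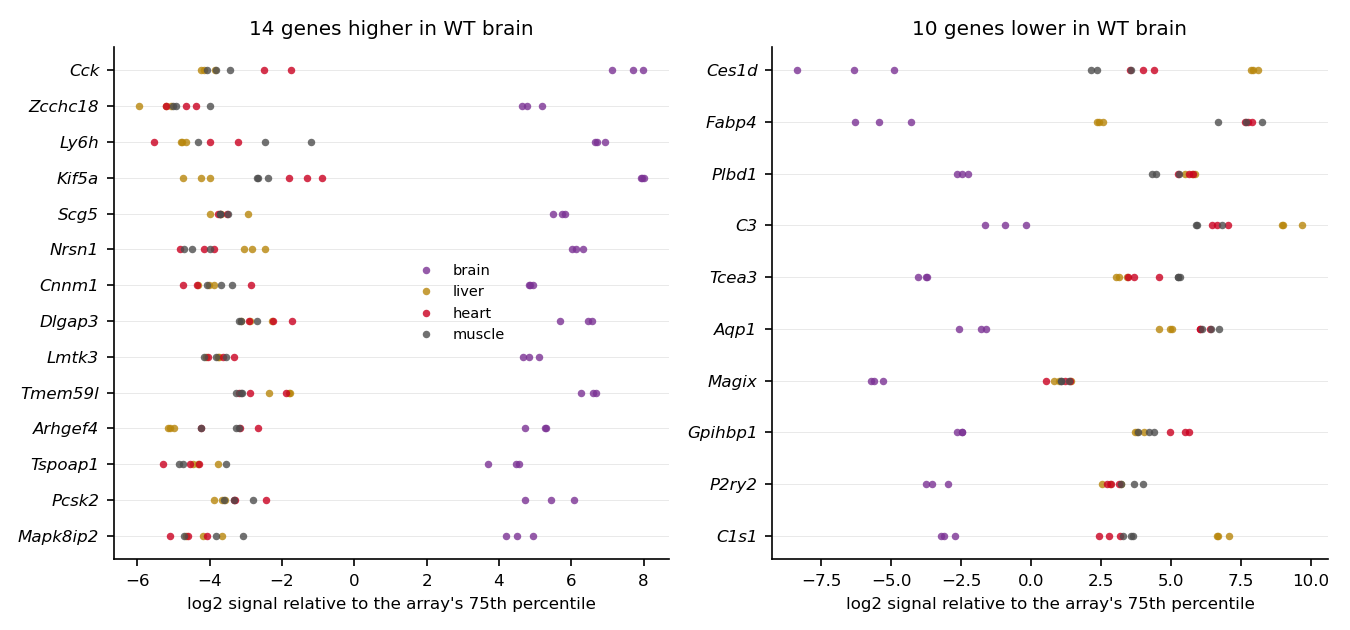
Levels of 14 of the 15 genes ranked highest (left) and the 10 ranked lowest (right) by the smallest of the 3 differences between WT brain and the other WT tissues, each point 1 array (3 a tissue), on a log2 axis relative to the array's 75th percentile. By the choice of the largest gaps, the brain points lie apart from all points of the other tissues for every gene, by 8.42 to 9.72 log2 units in the means for the higher genes.

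Markers of the cells that the tissue label implies are described next. The lists were written with earlier results of these data known, so the counts do not test the cell content. All 14 neuron markers listed were higher in brain, and 3 of the 14 had passed the filter through the brain alone. The count was 13 with the slide as a block, in a test against 1 log2 unit or without brain 1. It was 4 with probes above background on all 12 arrays, where fewer probes are tested. The median differences of the 14 markers were 9.35, 7.83 and 8.11 log2 units against liver, heart and muscle. Their median level lay between 5.13 and 5.52 on the brain arrays and between -5.61 and -2.75 on the other arrays. *Nefl*, the light neurofilament subunit, was 5.45, 5.27 and 5.13 in brain and not well above background on any of the 9 other arrays, at least 1354-fold lower. *Gap43*, a protein of growing axons, was at least 592-fold and *Eno2*, the neuronal enolase, 250.5-fold higher. Of the 14 markers, 7 to 10 were above background on a given array outside the brain.

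All 14 genes of the axon initial segment and node of Ranvier were higher, and 3 of the 14 had passed the filter through the brain alone. Among them were *Bcan*, a matrix proteoglycan of the perinodal space, by at least 1823-fold, *Cntn1*, an adhesion molecule, by 273-fold, and *Nrcam* by at least 126-fold. Of 30 genes for the neuronal cytoskeleton and axonal transport 27 were higher. *Stmn3*, which destabilises microtubules in neurons, was at least 841-fold higher, with brain levels of 7.0, 6.58 and 6.69. *Dync1i1*, an intermediate chain of dynein, was 414-fold higher. *Tuba4a*, *Dpysl3* and *Dpysl5* were not called: *Tuba4a*, an alpha-tubulin, was at 6.09 to 6.72 in brain, below the 7.73 to 8.14 of muscle and overlapping with the 6.28 to 6.78 of the liver.

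Synaptic vesicle proteins and the release machinery were higher for 27 of 30 genes, and 5 of the 30 had passed the filter through the brain alone. *Cplx1*, a clamp of the fusion complex, was 6.66, 5.85 and 6.06 in brain and at least 3097-fold lower elsewhere, where 1 of the 9 arrays was above background. *Bsn*, the active zone scaffold bassoon, was at least 468-fold and *Rph3a*, a Rab3 effector, at least 233-fold higher. *Snap25*, a core subunit of the fusion complex, was among the weaker ones. Its levels were 6.71, 6.26 and 6.29 in brain against 5.07, 4.53 and 5.65 in heart, a 2.53-fold difference (1.34 ± 0.51 log2 units, limma adjusted p = 0.0404). That call was lost in 9 of the other settings, among them 7 that left out 1 array. *Cplx2*, the sister gene of *Cplx1*, was 5.81, 6.75 and 6.68 in brain and between 5.57 and 6.94 in the other tissues, so its groups overlapped (limma adjusted p = 0.987), though another of its probes was higher in brain, by 6.01 log2 units or more against each tissue. *Rab3c* and *Erc2* were not called either by the probes that represent them, while other probes of both were higher.

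On the receiving side, 21 of 28 postsynaptic density genes were higher and none was lower, and 5 of the 28 had passed the filter through the brain alone. *Lrrtm1* and *Lrrtm2*, adhesion proteins that organise excitatory synapses, were 212-fold and at least 169-fold higher. *Nlgn1*, the neuroligin of excitatory synapses, was 1.56, 1.36 and 1.20 in brain and not above background elsewhere, at least 89.9-fold lower. Several members of the list were shared with muscle. *Camk2b*, a subunit of CaM kinase II, was at 6.43, 6.27 and 6.25 in brain and 5.66, 5.52 and 5.13 in muscle (limma adjusted p = 0.053), and its other probe was higher in brain than in each tissue, by 1.73 log2 units against muscle. *Homer1*, a scaffold that ties receptors to calcium stores, was at 2.76 to 2.98 in brain and 3.93 to 4.35 in muscle, and *Gphn*, the scaffold of inhibitory synapses that also acts in molybdenum cofactor synthesis, was highest in liver, at 3.95 to 4.62.

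Glutamate receptors and transporters were higher for 23 of 26 genes, and 10 of the 26 had passed the filter through the brain alone. *Gria1*, an AMPA receptor subunit, was 3.16, 3.29 and 3.1 in brain and at least 315-fold lower elsewhere. *Grin1*, the obligatory NMDA receptor subunit, was at least 246-fold and *Slc17a6*, which loads glutamate into vesicles, at least 179.9-fold higher. *Grm2*, a presynaptic metabotropic receptor, was the 1 gene of the list that was lower: 0.72, -0.38 and 0.23 in brain against 0.76 to 1.85 in the others, a 2.09-fold difference (limma adjusted p = 0.0168). That call was lost in 7 of the other settings, among them z-scores, the slide as a block and leaving out brain 2. *Slc1a2*, the glutamate transporter of astrocytes, did not differ in a way that was called from the liver, at 4.16, 3.49 and 3.61 against 4.37, 4.12 and 4.02, though both other probes of that gene were higher in brain.

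Inhibitory transmission gave 18 higher genes among 22 tested of the 24 listed for GABA and glycine, 12 of which had passed the filter through the brain alone. *Slc32a1*, the vesicle transporter for both transmitters, was 5.99, 6.51 and 5.98 in brain and at least 2342-fold lower elsewhere. *Gad1* and *Gad2*, which make GABA, were at least 678-fold and 505-fold higher. *Abat*, which degrades GABA, was higher in liver (6.18 to 6.87) than in brain (5.18 to 5.77). *Gabbr2*, a subunit of the metabotropic receptor, was at 0.51 to 1.87 in heart and -2.23 to -0.94 in brain, and *Gabra2* reached 0.63 to 1.90 in heart against 0.53 to 1.22 in brain. These are the probes that represent the genes: both other probes of *Gabbr2* and the other probe of *Gabra2* were higher in brain than in each tissue.

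Monoamine and acetylcholine genes were higher for 16 of 25, and 10 of the 25 had passed the filter through the brain alone. *Htr2c*, a serotonin receptor, was 1.85, 3.07 and 1.66 in brain, *Slc6a3*, the dopamine transporter, 1.5, 3.21 and 1.32, and *Drd1*, a dopamine receptor, 0.21, 1.23 and 0.16. All were not above background elsewhere, at least 159-fold, 140.0-fold and 49.1-fold lower, and brain 2 was the highest of the brains for each. Some enzymes of synthesis were not called. *Dbh*, which makes noradrenaline, was at 2.27, 3.51 and 3.57 in heart and -2.89, -0.68 and -2.27 in brain, and *Ddc*, the decarboxylase for dopamine and serotonin, was at 4.59 to 5.44 in liver and 1.45 to 3.12 in brain. *Tph2*, the neuronal enzyme for serotonin, was called higher, at -3.4, -1.3 and -4.1 in brain. Its smallest measured difference, 4.41 log2 units against muscle, rests partly on values at background and is not a lower limit.

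Neuropeptides and the proteins that pack them were higher for 23 of 27 genes, 12 of the 27 having passed the filter through the brain alone. *Vgf*, a granin-like precursor, was 6.55, 5.89 and 6.19 in brain and not above background on the 9 other arrays, at least 2575-fold lower. *Scg2* and *Chgb*, granins of dense-core vesicles, were at least 1229-fold and 879.6-fold higher. *Pcsk1n*, an inhibitor of the convertase that processes these precursors, was an exception. Its level of 6.92, 6.40 and 6.66 in brain was below the 8.03, 8.0 and 7.52 of muscle. *Agrp*, *Nts* and *Bdnf* were not called against the heart.

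Voltage-gated channels divided by tissue. Of 20 potassium channel genes, 6 of which had passed the filter through the brain alone, 17 were higher. With the slide as a block, and in a test against 1 log2 unit, 13 were. *Kcnip4*, a partner of A-type channels, was among the 17, with 4.01, 3.51 and 3.54 in brain and at least 192-fold lower levels elsewhere. Of 19 calcium channel genes, 5 of which had passed the filter through the brain alone, 11 were higher and none was lower. *Cacng2*, the AMPA receptor partner stargazin, was at least 282-fold higher. *Cacna1s*, the voltage sensor of skeletal muscle, was at 8.91 to 9.05 in muscle and -1.10 to -0.70 in brain. Of 11 sodium channel genes 6 were higher, with *Scn1a* and *Scn2a*, pore subunits of neurons, at least 460-fold and 119-fold. *Scn4a*, the pore of skeletal muscle, was lower in brain than in each other tissue, by 2.90-fold against heart. *Scn4b*, an accessory subunit, reached 6.72 to 6.97 in muscle against 4.06 to 5.07 in brain.

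The potassium channel gene *Kcna4* was lower in brain, at 0.61, 1.10 and 0.90 against 5.49 to 7.31 in liver, 2.03 to 2.40 in heart and 3.32 to 3.76 in muscle (2.54-fold against heart, limma adjusted p = 0.00976). The *Kcna4* call was lost with the slide as a block and in a test against 1 log2 unit. The profile of its probe over the 12 WT arrays was nearly that of the probes for *Scn8a*, *Dpysl5* and *Pot1a*, with correlations between 0.986 and 0.998 for the 6 pairs. This likeness was looked for after the values were seen. *Kcna4* had 35 other genes at a correlation above 0.99 among 17589. Both other probes of *Scn8a*, a sodium channel of the node of Ranvier, were higher in brain, with smallest differences of 4.47 and 5.72 log2 units, whereas its representing probe was at 1.02, 0.99 and 0.90 in brain and 5.59 to 7.07 in liver. What these probes share was not tested.

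Transcription factors of the nervous system were higher for 36 of 40 tested genes of the 42 listed, and 24 of the 40 had passed the filter only through the brain. *Scrt1*, a repressor of postmitotic neurons, was 5.40, 5.01 and 5.44 in brain and at least 1354-fold lower elsewhere. *Tbr1*, a factor of deep cortical layers, was at least 687-fold higher, and *Myt1l*, which represses non-neuronal programmes, at least 619.8-fold. *Lhx6*, a factor of cortical interneurons, was not called against the heart, with 4.69, 4.82 and 4.78 in brain and 4.26, 3.76 and 4.6 in heart. *Mef2c*, which acts in neurons and in muscle, was at 2.16 to 2.49 in muscle and 0.25 to 1.48 in brain.

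*Rest*, the repressor that keeps neuronal genes silent outside the nervous system, was itself lower in brain. Its levels were -1.24, -1.30 and -1.69 in brain and between 0.41 and 1.46 on the 9 other arrays, without overlap. The difference was 4.25-fold against the heart (2.09 ± 0.23 log2 units lower, limma adjusted p = 9.81e-06), and a second probe was lower as well. Of 28 listed genes of the REST complex and its targets, 11 of which had passed the filter through the brain alone, 22 were higher, the largest of them *Cplx1*, *Vgf* and *Nefl* above. *Rcor1*, a corepressor that REST recruits, was lower by 1.55-fold, at 1.57, 1.86 and 1.70 in brain and 1.98 to 2.84 elsewhere. That call was lost in 13 of the other settings, among them quantile normalization and z-scores. *Rcor2* and *Rcor3* were not called.

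The promoters of the genes tested were searched for the letters of RE1, the element that REST binds, on both strands, from 250 bases before to 50 bases after each RefSeq start. The left part of the element was taken as TTCAGCACC and the right part as GGACAGC, which do not overlap each other. TTCAGCACC was found in 25 of 3125 promoters of higher genes (0.8%), in 6 of 3740 of lower genes (0.16%), in 39 of 10634 of genes not called (0.367%) and in 70 of all 17499 (0.4%). Both parts anywhere in the window were found in 8 promoters of higher genes (0.256%), against 12 of all (0.0686%). With exactly these letters, the 2-base spacing that joins them into the classical element occurred in 2 promoters of all (0.0114%) and in none of the higher genes. Elements with other letters in either part were not searched for. In *Celsr3*, printed below, TTCAGCACC is followed after 2 bases by gggcagc, which is close to GGACAGC and was not counted. GGACAGC alone was found in 7.94% of the promoters of higher genes and in 7.51% of all. A match is a description of letters and not a bound site. Among the listed genes *Syn1*, *Celsr3*, *Nlgn1*, *Grm2* and *Slc27a1*, a fatty acid transporter, hold TTCAGCACC in the bases before the start. The first 4 are genes of the synapse and axon and are shown to let the place of the match be seen, with *Syn1*, *Celsr3* and *Nlgn1* higher and *Grm2* lower in brain. Capitals mark TTCAGCACC and, in *Grm2*, also GGACAGC. The sequences are from RefSeq, build GRCm38.p6, 5′ to 3′ on the strand of the gene, and end at the base before the start: *Syn1* at chrX:20920919-20921168 (minus strand, match beginning 232 bases before the start), *Celsr3* at chr9:108825795-108826044 (plus, 127), *Nlgn1* at chr3:26153987-26154236 (minus, 153) and *Grm2* at chr9:106656110-106656359 (minus, 242).
Syn1: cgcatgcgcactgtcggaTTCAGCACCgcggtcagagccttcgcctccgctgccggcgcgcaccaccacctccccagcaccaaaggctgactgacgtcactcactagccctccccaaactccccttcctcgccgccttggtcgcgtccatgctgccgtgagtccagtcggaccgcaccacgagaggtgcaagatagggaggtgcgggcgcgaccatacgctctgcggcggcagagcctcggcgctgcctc
Celsr3: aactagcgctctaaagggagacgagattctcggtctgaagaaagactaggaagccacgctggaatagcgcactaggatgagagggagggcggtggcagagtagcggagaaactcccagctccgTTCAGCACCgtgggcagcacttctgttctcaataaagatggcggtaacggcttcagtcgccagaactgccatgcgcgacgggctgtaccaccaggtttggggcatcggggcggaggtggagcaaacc
Nlgn1: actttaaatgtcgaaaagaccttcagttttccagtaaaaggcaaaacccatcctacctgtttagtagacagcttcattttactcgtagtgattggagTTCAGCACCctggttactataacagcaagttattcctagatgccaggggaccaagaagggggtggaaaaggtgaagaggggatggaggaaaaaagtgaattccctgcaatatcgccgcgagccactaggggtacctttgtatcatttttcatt
Grm2: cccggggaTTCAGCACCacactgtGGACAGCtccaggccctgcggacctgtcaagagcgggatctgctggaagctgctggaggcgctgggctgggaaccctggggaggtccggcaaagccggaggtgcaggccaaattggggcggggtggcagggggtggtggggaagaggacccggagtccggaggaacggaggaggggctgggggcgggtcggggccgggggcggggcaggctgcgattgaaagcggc

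*Syn1*, the vesicle phosphoprotein synapsin 1 and the first of these, was 6.67, 5.83 and 6.52 in brain, -3.44, -2.80 and -2.83 in liver, -2.19, -2.06 and -1.54 in heart and -4.00, -3.49 and -3.53 in muscle. It was 309-fold higher than in heart, the nearest tissue. *Celsr3*, an atypical cadherin of axon guidance, was 2.74, 3.48 and 4.00 in brain and at least 147-fold lower elsewhere. Promoters of higher genes held TATAAA in 8.7% and a CpG content of at least 0.6 observed over expected in 51.8%, against 9.6% and 56.6% of all. For genes with no signal outside the brain the CpG share was 36.8%. The higher genes were also longer, with a median span of 29 kb against 20.8 kb over all genes tested, and 23.6% of them exceeded 100 kb against 12.8%. These shares are descriptions of the genes called and were not tested.

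Many neuronal proteins belong to families with a member used in most cells, and 40 such pairs were followed. The member listed as neural was higher in 33 pairs. Of the 38 distinct other members, 1 was higher (*Atp2b1*, a plasma membrane calcium pump, by 3.55-fold against muscle), 10 were lower, a share near the 21.7% over all genes, and 27 were not called. In 9 pairs the members went in opposite directions. *Tubb3*, the neuronal beta-tubulin, was 4.80, 4.53 and 4.54 in brain and 133-fold higher than in heart, whereas *Tubb6* was -1.48, -1.72 and -1.57 in brain, lower than in liver by 9.71-fold. *Syp*, the vesicle protein synaptophysin, was 17.1-fold higher than in liver, and its relative *Sypl* was 3.91-fold lower than in heart.

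The chromatin remodelling complex BAF exchanges subunits when neural precursors leave the cell cycle, and its listed pairs all went in opposite directions. *Actl6b* was higher in brain by 5.47 log2 units against liver, and *Actl6a* lower by 1.78 against the nearest tissue. *Ss18l1* was higher by 1.84 and *Ss18* lower by 0.77, and *Dpf1* higher by 2.77 and *Dpf2* lower by 0.62, although *Dpf2* came out at 0.15 above 0 after quantile normalization and the *Ss18* call was lost there. *Elavl3*, a neuronal Hu protein that binds AU-rich RNA, was at least 1121-fold higher, and *Elavl1*, its general relative, lower by 2.48 log2 units by its representing probe but 0.76 higher when all its probes were averaged. *Dnm2*, *Gnai2* and *Atp6v1g1*, the general partners of *Dnm1*, *Gnao1* and *Atp6v1g2*, were lower by 0.65, 0.73 and 0.62 log2 units, and each turned to a value above 0 after quantile normalization. Another probe of *Dnm2* was higher in brain.

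The splicing repressors *Ptbp1* and *Ptbp2*, which replace each other as neurons mature, did not form such a pair in these data. *Ptbp1* was 0.38, 0.59 and 0.64 in brain and 0.84 to 1.27 in muscle, 1.45-fold lower (limma adjusted p = 0.0492), a call lost in 16 of the other settings and turned to 0.033 above 0 with the slide as a block. *Ptbp2* was 1.13, 1.03 and 0.90 in brain and -0.38 to 0.96 elsewhere and was not called. Of 29 neuronal RNA-binding and splicing factors, 4 of which had passed the filter through the brain alone, 12 were higher, and 2 were lower. *Celf5*, a brain CELF protein, was 315-fold and *Srrm3*, which drives neuronal microexons, at least 295-fold higher. *Esrp2*, an epithelial splicing factor, was lower by 3.62-fold and *Mbnl1*, a muscleblind protein of muscle and other tissues, by 1.94-fold. *Rbfox1*, which acts in neurons and muscle, was 5.80 to 5.96 in brain and 6.76 to 7.18 in muscle.

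Energy enzymes and kinases were mixed. *Aldoc*, the aldolase of brain, was 8.0, 8.08 and 7.87 in brain and 10.2-fold higher than in liver, while *Aldoa* was at 8.32 to 8.51 in brain and 10.16 to 10.28 in muscle. *Hk1*, the hexokinase of brain, was 6.33, 5.75 and 6.25 in brain and 5.81, 5.92 and 6.28 in heart, so its groups overlapped (limma adjusted p = 0.743), while its other probe was higher in brain. *Camk2a*, the forebrain subunit of CaM kinase II, was 4.02, 3.14 and 3.92 in brain and 3.57, 3.46 and 3.14 in muscle and was not called. *Cpt1c*, a brain relative of carnitine palmitoyltransferase, was 2.25, 1.66 and 2.34 in brain and 21.4-fold higher than in heart.

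**Figure D2:**
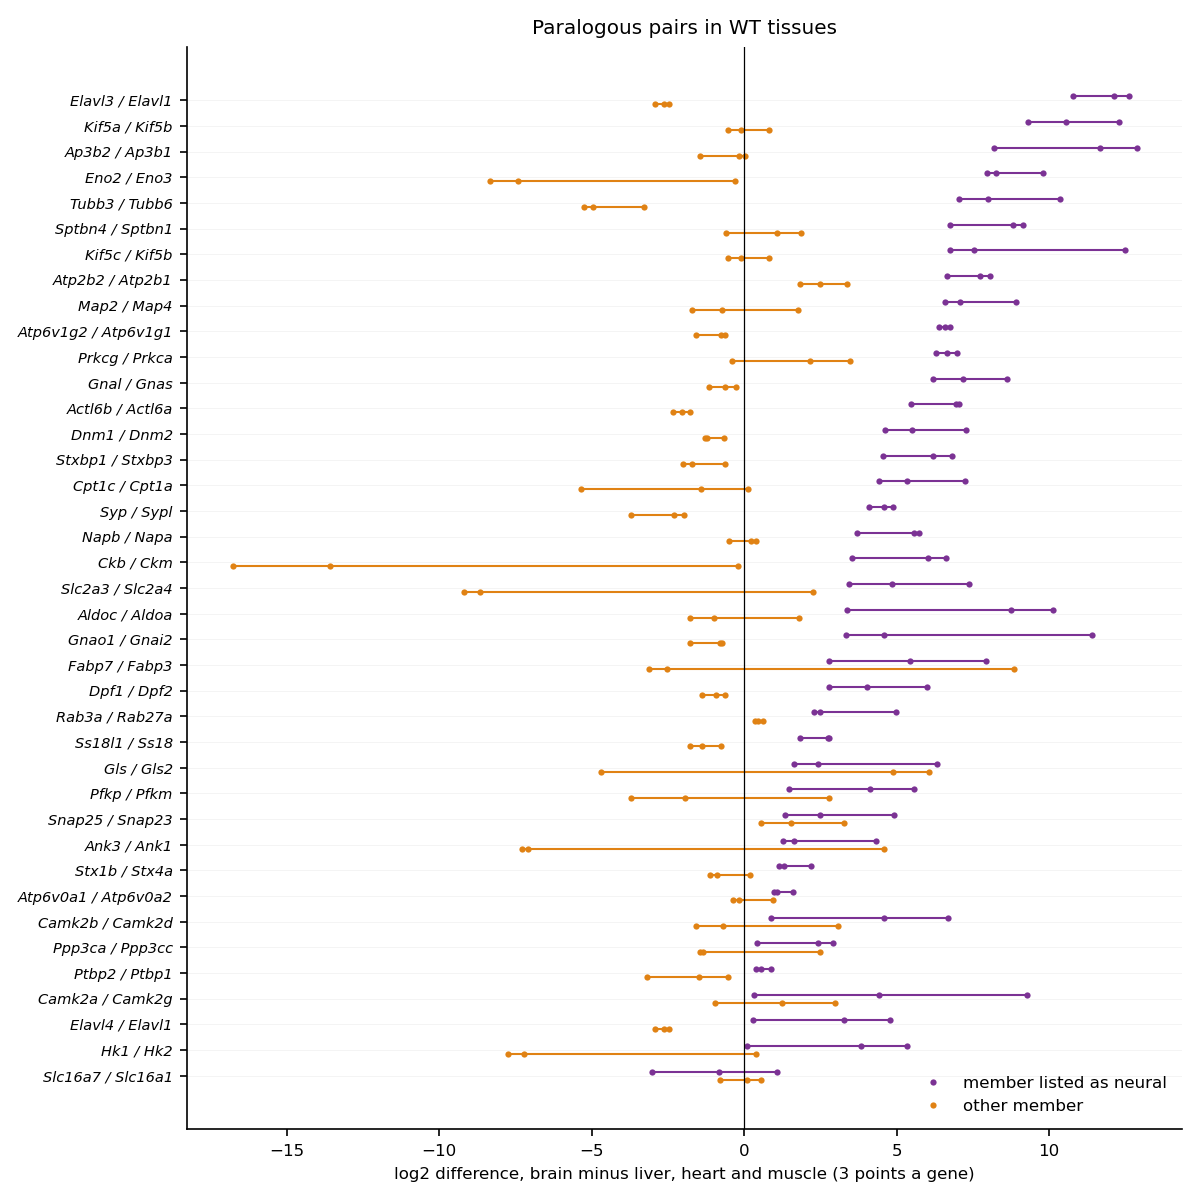
Differences in level between WT brain and WT liver, heart and muscle (log2 units, 3 points a gene joined by a line) for 39 of the 40 pairs of related genes, the member listed as neural in purple and the other member in orange. For 32 of these pairs all 3 purple points lie above 0 and were called, and the orange points of *Tubb6*, *Sypl* and *Actl6a* lie below 0.

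Glial lists were mixed. Of 18 astrocyte markers 11 were higher, and 3 of the 18 had passed the filter through the brain alone. *Mlc1*, a membrane protein of astrocyte endfeet, was at 5.59, 5.55 and 5.38 in brain and not above background elsewhere. *Gfap*, the astrocyte filament, was at least 270.5-fold higher, and *S100b* at least 34.9-fold. The 7 not called include genes of liver and heart. *Aldh1l1*, a folate enzyme, was 4.41, 4.12 and 4.24 in brain and 7.83 to 8.58 in liver, and *Gja1*, a gap junction protein, was 0.51 to 0.78 in brain and 2.28 to 3.41 in heart.

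Oligodendrocyte and myelin genes were higher for 20 of 28, and 5 of the 28 had passed the filter through the brain alone. *Gpr17*, a receptor of differentiating oligodendrocytes, was at least 403-fold higher and *Cldn11*, the tight junction protein of myelin, 279-fold. *Mag*, a myelin adhesion protein, was 4.70, 4.56 and 4.72 in brain and 98.5-fold higher than in muscle. *Mbp*, the basic protein of both central and peripheral myelin, was 3.61, 3.40 and 3.47 in brain and 7.53-fold higher than in heart. *Gjb1* was 8.27 to 8.55 in liver and 2.03 to 2.58 in brain, and *Trf*, the iron carrier transferrin, 8.56 to 9.18 in liver and 5.86 to 6.66 in brain. Among 10 tested markers of Schwann cells, the myelinating cells of peripheral nerve, 4 were higher, and these (*Mag*, *S100b*, *Mbp* and *Sox10*) are also genes of central glia, while *Pmp22* was at 3.12 to 4.10 in heart and muscle and 1.57 to 1.97 in brain.

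Microglia markers were higher for 5 of 16, against 17.5% over all genes, and for 2 in a test against 1 log2 unit. *P2ry12*, a purine receptor of resting microglia, was 1.27, 0.67 and 0.97 in brain and 7.66-fold higher than in heart, and *Cx3cr1*, the fractalkine receptor, 3.17, 3.09 and 2.90 and 5.71-fold higher than in heart. *Gpr34* and *Trem2* were higher by 3.01-fold and 2.86-fold. *Tyrobp*, an adaptor that other macrophages also use, was among the 11 not called, at 1.91 to 2.68 in brain and 2.51 to 3.16 in liver and heart.

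Choroid plexus and ependyma genes were higher for 9 of 14, and 5 of the 14 had passed the filter through the brain alone. *Otx2*, a homeobox factor of the choroid plexus, was at least 49.6-fold and *Foxj1*, a factor for motile cilia, at least 22.3-fold higher. *Ttr*, the thyroxine carrier secreted by choroid plexus and by liver, was 5.87, 5.70 and 4.43 in brain and 8.41 to 9.06 in liver. *Aqp1*, a water channel of choroid plexus and of capillaries outside the brain, was lower in brain, at -1.80, -1.60 and -2.57 against 4.58 to 6.71 elsewhere, by 115-fold against liver. *Rarres2* was lower too, by 6.07-fold.

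Of 8 pan-endothelial markers 5 were lower and none was higher, against 21.7% and 17.5% over all genes. With the slide as a block 1 of the 8 was lower. *Kdr*, the main receptor for VEGF, was 0.02, -0.16 and 0.02 in brain and 2.51 to 4.79 elsewhere, 7.07-fold lower than in muscle. Of 16 markers of brain endothelium and pericytes 3 were higher, a share near the 17.5% over all genes, and 2 with the slide as a block. They were transporters of the barrier: *Slco1c1*, which carries thyroxine, by 25-fold, *Slc7a5*, which carries large neutral amino acids, by 14.3-fold, and *Slc2a1*, the glucose transporter, by 2.69-fold. *Abcc9*, a potassium channel subunit of pericytes and of muscle, was 6.90-fold and *Abcg2*, an export pump, 2.32-fold lower.

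Cell adhesion and guidance genes were higher for 22 of 29 tested, among them *Ntm* and *Lsamp*, surface proteins of the IgLON family, by at least 67.1-fold and 57.5-fold. Of 20 protocadherins and related cadherins tested, 6 of which had passed the filter through the brain alone, 15 were higher. *Pcdh10*, of the delta group, was at 3.89, 2.88 and 3.08 in brain and at least 339-fold lower elsewhere. *Pcdhac2*, from the end of the clustered alpha genes, was 96.5-fold higher than in heart. *Pcdh1* was lower by 2.41-fold, but 0.35 log2 units higher when all its probes were averaged. Of 14 tested imprinted genes 9 were higher, including *Nap1l5* by at least 176-fold, *Ndn* by 14.5-fold, *Magel2* by 7.96-fold and *Snrpn* by 7.59-fold, genes of which the last 3 lie in the Prader-Willi region. *Ube3a*, in the same region, was lower, at 0.03, -0.09 and -0.35 against 0.26 to 1.46 elsewhere. That call was lost with z-scores, with the slide as a block, in a test against 1 log2 unit, and without brain 3 or heart 1.

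**Figure D3:**
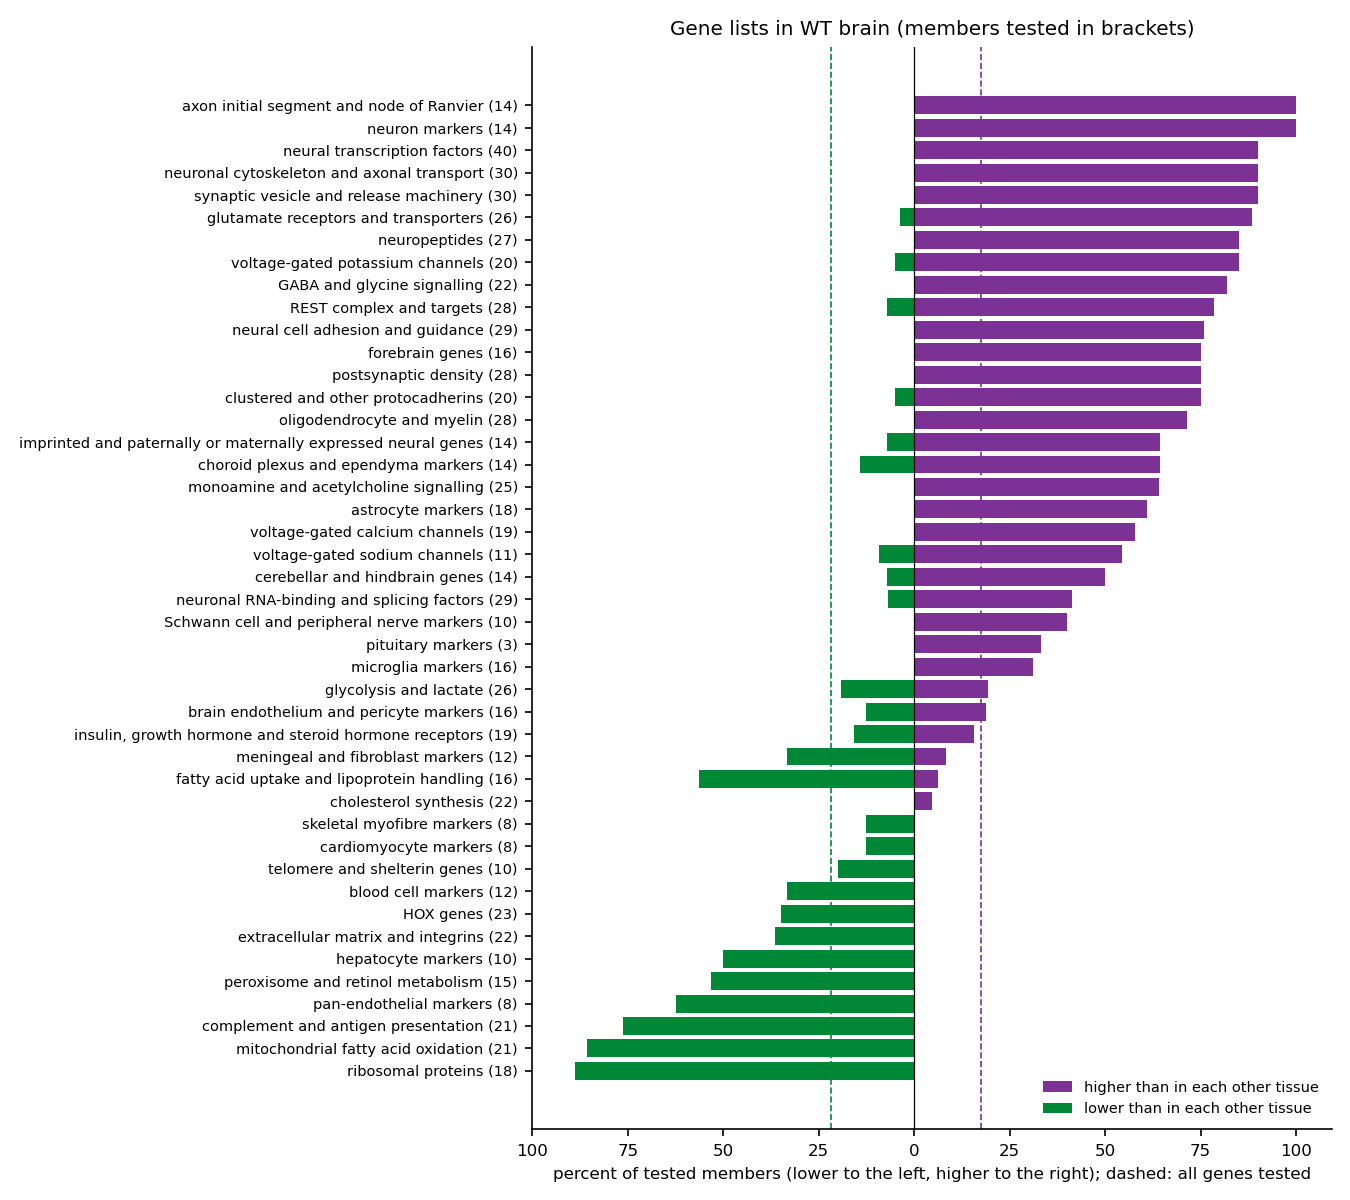
Share of the tested members of each gene list (percent, number tested in brackets) called higher (purple, to the right) or lower (green, to the left) in WT brain than in each of WT liver, heart and muscle. The dashed lines mark 17.5% and 21.7%, the shares over all genes tested. All 14 neuron markers were higher, and 13 with the slide as a block. The lower bars of ribosomal proteins, fatty acid oxidation and complement genes reach farthest, of which the ribosomal one shrinks to 2 of 18 after quantile normalization.

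Among genes measured in most arrays, the strongest deficits in brain were those of *Ces1d* and *Fabp4*. *Ces1d*, a carboxylesterase that hydrolyses lipids, was -4.90, -8.35 and -6.31 in brain, 7.87 to 8.10 in liver, 3.54 to 4.41 in heart and 2.12 to 3.56 in muscle. Its difference from muscle was -9.20 ± 0.69 log2 units (limma adjusted p = 4.11e-07), and -8.28 without brain 2. *Fabp4*, the fatty acid-binding protein of fat cells, capillaries and macrophages, was -6.30, -4.30 and -5.44 in brain, 2.37 to 2.56 in liver and 6.67 to 8.23 in heart and muscle. For both genes 2 of the 3 brains were above background, so the size of the difference rests partly on values at background.

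Of the other ranked deficits *Gpihbp1*, the capillary anchor of lipoprotein lipase, was -2.46, -2.48 and -2.64 in brain and 82.5-fold lower than in liver. *C3*, the central complement protein, was -0.19, -0.93 and -1.63 in brain, 139.6-fold lower than in muscle, and *C1s1*, a protease of the classical complement pathway, 56.4-fold lower than in heart. *Plbd1* and *Tcea3*, a transcription elongation factor, were 142-fold and 132-fold lower, *P2ry2*, a nucleotide receptor, 77.5-fold and *Magix* 95.9-fold. That none of the 10 overlapped follows from the ranking, and all were called lower in the MUT brain.

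Mitochondrial fatty acid oxidation was lower in brain for 18 of 21 genes, with median differences of -3.86, -4.83 and -3.35 log2 units against liver, heart and muscle, where the median gene stood at -0.339, -0.298 and -0.303. The count was 17 to 19 under each scaling. *Acads*, the short-chain acyl-CoA dehydrogenase, was -3.05, -3.21 and -2.43 in brain and 32.3-fold lower than in muscle. *Acadm* and *Acadvl*, for medium and very long chains, were 12.5-fold and 11.7-fold lower, and *Cpt2*, a carnitine palmitoyltransferase of mitochondria, 17.3-fold. The 3 not called lay close to 1 other tissue. *Cpt1a*, the liver form of the entry enzyme, was 1.64, 1.02 and 1.27 in brain and 0.97 to 1.30 in muscle, *Cpt1b*, the muscle form, was -4.73 to -3.35 in brain and -3.78 to -3.48 in liver, and *Pdk4* was -0.48 or above in brain and -1.23 to -0.62 in liver.

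Uptake and storage of fatty acids followed, with 9 of 16 genes lower, against 21.7% over all genes. *Cd36*, the fatty acid translocase, was -5.25, -4.18 and -4.43 in brain and 13.5-fold lower than in liver, *Plin5*, a lipid droplet coat protein, 27.8-fold and *Pnpla2*, the first lipase of droplets, 10.0-fold. *Fabp7*, the fatty acid-binding protein of radial glia and astrocytes, was the 1 member that was higher, with 2.85, 2.77 and 2.69 in brain and 6.82-fold less in liver. Of 15 genes of peroxisomes and retinol metabolism 8 were lower, *Pxmp2* by 11.9-fold and *Ehhadh* by 5.80-fold. Cholesterol synthesis stood between the tissues, with 21 of 22 genes not called and median differences of -2.93 against liver, 1.57 against heart and 1.02 against muscle. *Msmo1*, a sterol oxidase of the pathway, was 4.69, 4.50 and 4.34 in brain, 6.16 to 6.94 in liver and 1.11 to 1.52 in heart and muscle. *Cyp46a1*, which removes cholesterol from the brain as 24-hydroxycholesterol, was the member called, 4.21-fold higher than in liver.

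Glycolysis had 5 higher and 5 lower genes among 26, shares close to those over all genes. The lower count was 2 without brain 2, with quantile normalization or with z-scores, and 1 with the slide as a block. The higher ones include *Slc2a3*, the neuronal glucose transporter, by 10.7-fold, and *Pfkp*, the platelet form of phosphofructokinase, by 2.79-fold, besides *Eno2*, *Aldoc* and *Slc2a1*. Of the lower ones *Ldha*, a lactate dehydrogenase chain, was lower by 2.95-fold, while *Gapdh*, *Pgk1* and *Tpi1* were lower by 1.55-fold, 1.53-fold and 1.73-fold here and came out above 0 after quantile normalization, by 0.33, 0.34 and 0.63 log2 units.

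**Figure D4:**
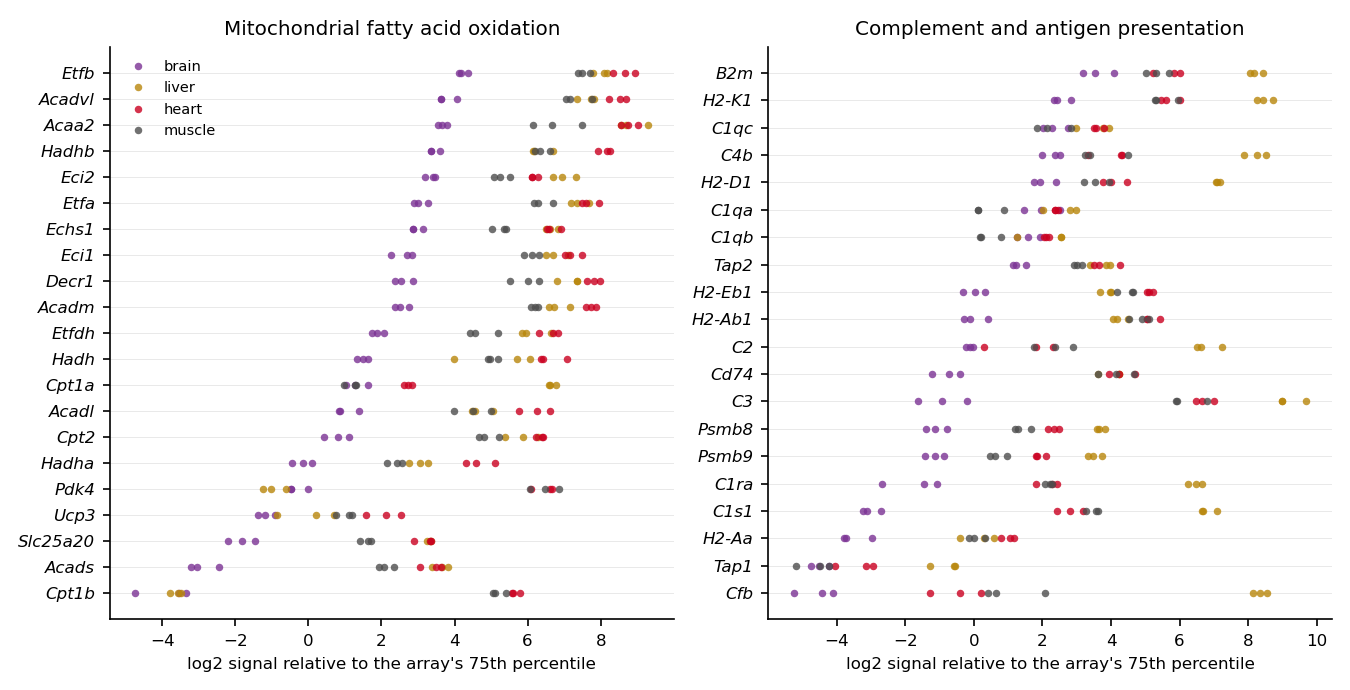
Levels of the 21 listed genes of mitochondrial fatty acid oxidation (left) and 20 of the 21 of complement and antigen presentation (right), each point 1 WT array (3 a tissue), on a log2 axis relative to the array's 75th percentile and ordered by their brain mean. The purple brain points lie left of the other tissues for the 18 and 16 genes called lower, and among the other tissues for genes such as *Cpt1a*, *C1qa* and *C1qb*.

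Complement and antigen presentation were lower for 16 of 21 genes. *Cd74*, the invariant chain of class II molecules, was -0.41, -1.22 and -0.72 in brain and 3.61 to 4.71 elsewhere, 28.2-fold lower than in liver. *H2-Ab1*, a class II chain, was 19.0-fold and *Cfb*, complement factor B, 17.2-fold lower. The C1q genes, which microglia and other macrophages make, were not called: *C1qa* was 2.52, 1.47 and 1.96 in brain, 2.02 to 2.98 in liver, 2.35 to 2.45 in heart and 0.13 to 0.88 in muscle. *Tap1* was not called against the muscle. Extracellular matrix and integrin genes were lower for 8 of 22 and higher for none, where 21.7% and 17.5% of all genes were. They were led by *Col3a1*, the fibrillar collagen of soft tissues, at -1.86, -1.19 and -1.05 in brain and 2.22 to 6.64 elsewhere, 20.8-fold lower. *Itgb1*, the beta chain shared by most matrix receptors, was 6.27-fold lower. *Sparc*, a matrix glycoprotein that brain endothelium and glia also make, was 7.26, 7.97 and 7.11 in brain and 5.34 to 5.88 in liver.

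Of 19 listed receptors and signalling genes for hormones 3 were lower and 3 higher, shares no larger than the 21.7% and 17.5% over all genes. *Ghr*, the growth hormone receptor, was -0.34, -0.15 and -0.41 in brain and 31.6-fold lower than in heart, and *Insr*, the insulin receptor, -0.75, -0.85 and -0.71 and 4.90-fold lower than in muscle. *Irs1*, which carries the insulin signal, was 3.91-fold lower. *Rorb* and *Nr2f1*, orphan nuclear receptors of the cortex, were 32.2-fold and 9.12-fold higher, and *Nr4a2*, a factor of dopamine neurons, 7.04-fold. The other 13 were not called.

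Ribosomal proteins were lower for 16 of 18 genes here, for 2 after quantile normalization (with 1 higher), for 9 with z-scores and for 9 with the slide as a block, and none stood past 1 log2 unit in a test against that threshold. Their median differences of -1.04, -1.02 and -1.25 log2 units are to be set against -0.339, -0.298 and -0.303 for the median gene. *Rps18* was 4.88, 4.71 and 4.75 in brain and 6.02 to 6.82 elsewhere, 2.83-fold lower. Of 10 tested telomere genes 2 were lower, near the 21.7% over all genes: *Tinf2* by 1.83-fold and *Pot1a* by 3.06-fold, the latter measured by a probe with the shared profile described above. With quantile normalization and with z-scores 2 others of the list were called higher, and in a test against 1 log2 unit none was called lower.

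Of 10 hepatocyte markers 5 were lower than in each tissue, 2 without brain 2 and 8 with the slide as a block. The median level of the 10 hepatocyte markers was -1.18 in brain 1, against -5.21 and -5.09 in brains 2 and 3, -1.22 to 1.83 in heart and -1.64 to -0.52 in muscle. *Alb*, the plasma albumin, was 0.57, -5.80 and -6.04 in the brains and not called (limma adjusted p = 0.0565), and *Serpina1a* was 1.25, -4.30 and -3.31. All 10 were above background in brain 1, and 7 and 8 in the others. Brain 1 came from the older mouse and shared slide 1 with the livers, and the part of either in these values was not tested. Over all genes tested 21.7% were lower and 17.5% higher, the shares to set beside the counts in this paragraph. Of 8 cardiomyocyte and 8 myofibre markers 1 each was lower (*Actc1*, cardiac actin, and *Mylpf*, a light chain of fast muscle). Of 12 meningeal and fibroblast markers 4 were lower and 1, the organic anion transporter *Slc22a6*, was higher. Of 12 blood cell markers 4 were lower, and 2 without brain 1, with z-scores or with the slide as a block. *Hba-a1*, an alpha-globin gene, was among them, at 6.56, 6.67 and 6.88 in brain and 7.02 to 9.98 elsewhere, but turned to 0.53 above 0 after quantile normalization.

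The HOX genes, which mark the hindbrain and spinal cord as well as the trunk, were lower for 8 of 23 tested and higher for none. Over all genes 21.7% were lower and 17.5% higher. *Hoxb4* was -4.22, -4.22 and -7.77 in brain and -1.76 to -0.76 elsewhere. Brain 3 was not above background for this gene, and without it the difference from heart was -2.83 log2 units, against -4.01 with it. The count of lower HOX genes was 5 without brain 3 and 12 without brain 1, the range when 1 array was left out. In the MUT brain none of the HOX genes was called, at -0.33, -0.76 and -5.32 for *Hoxb4*, so this result did not recur, although no probe was called in the test of the difference between the genotypes.

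Of 16 forebrain genes 12 were higher in brain, where 6 had passed the filter through the brain alone. Of 14 tested cerebellar and hindbrain genes, 4 of which had passed it through the brain alone, 7 were higher and 1 (*Hoxa2*) was lower. The 3 brains were not alike in these genes. The cerebellar and hindbrain list had its lowest level in brain 3 for 12 of 17 genes (70.6%), against 34.8% of all genes. The forebrain list had it for 2 of 16 (12.5%). Of the 17 genes 14 were tested, whereas the share over all genes covers tested genes only. *En1* was above background in none of the brains, and *Hoxa2*, *Hoxb3* and *Hoxc4* are also on the HOX list. *Pcp2*, a Purkinje cell gene, was 4.21, 1.93 and -0.96 in the 3 brains. *Gabra6*, the GABA receptor subunit of cerebellar granule cells, was 0.34 and -2.38 in brains 1 and 2 and not above background in brain 3. *Cbln1* was 2.47, 1.79 and 0.47. Brain MUT3 stood low in the same way, with 16 of 17 cerebellar and hindbrain genes lowest (94.1%) against 52.7% of all genes. Array 3 was low in other lists too. It was the lowest for 20 of 24 HOX genes in WT and 18 of 24 in MUT. For neuropeptides it was the lowest for 13 of 27 in WT and 22 of 27 in MUT, and for pituitary markers for 7 of 9 and 6 of 9. Many of the HOX and pituitary values were not above background. *Pcp2* was 6.36, 5.03 and -1.0 in the MUT brains and *Gabra6* 3.00, 1.48 and not above background. Slide and age separate brain 1 from brains 2 and 3, and brains 2 and 3 shared both. The cause of the differences between the brains was not tested.

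*Pcp2* and *Cbln1* were called higher in brain all the same, by 5.43-fold and at least 20.0-fold, although *Pcp2* in brain 3, at -0.96, lay below all 3 muscles, at -0.90 to -0.60. *En2*, a midbrain and cerebellar factor, was 0.53, 0.22 and -1.34 and not called. Some genes of other regions were highest in brain 2. *Hcrt* and *Pmch*, peptides of the lateral hypothalamus, were 2.90, 5.57 and 2.07 and 2.27, 4.88 and 0.88, and *Rgs9*, a striatal signalling gene, was 3.05, 5.28 and 3.65. *Iqcf4* was -3.11, 2.55 and 1.90, with brain 1 low. *Pcp2*, *Gabra6*, *Hcrt*, *Pmch*, *Iqcf4* and the pituitary genes *Gh* and *Prl* were picked after their values were seen. Of 9 pituitary markers 3 were tested, and *Pomc*, a precursor that hypothalamic neurons also make, was higher in brain by 4.57-fold; *Gh* and *Prl*, the pituitary hormones, were above background only in brain 2 among the WT brains.

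**Figure D5:**
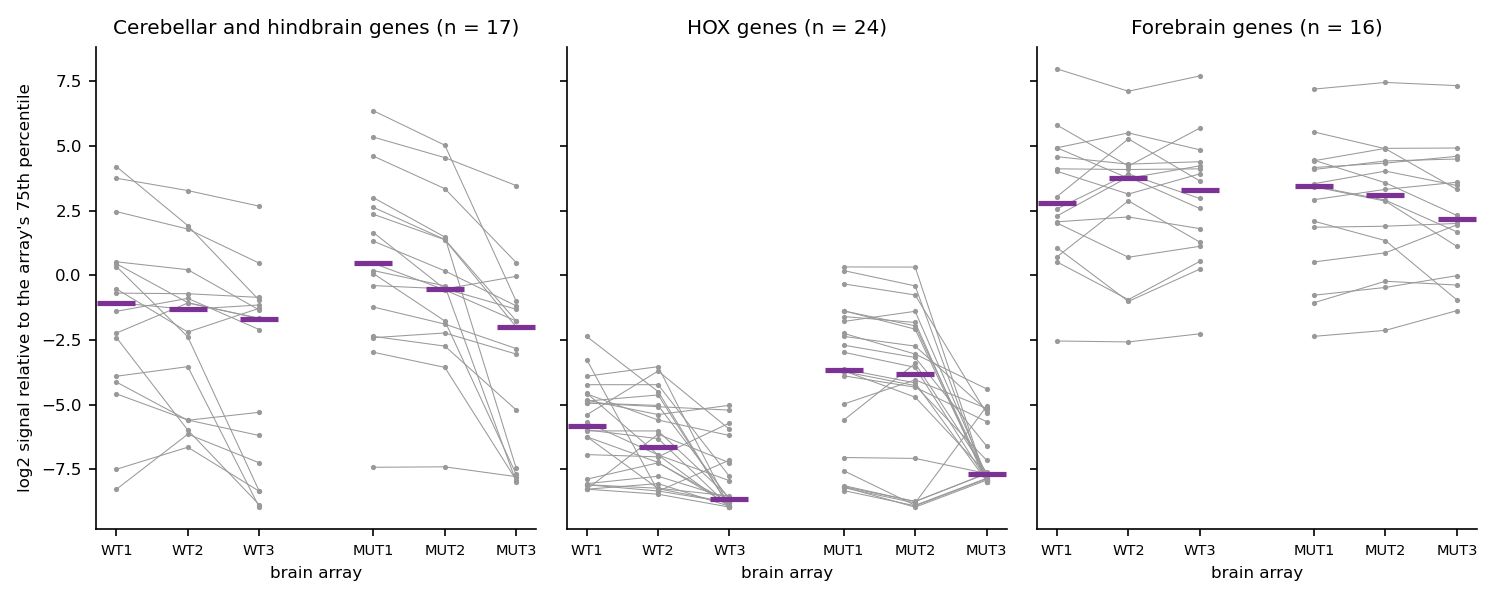
Levels of 17 cerebellar and hindbrain genes, 24 HOX genes and 16 forebrain genes on the 3 WT and 3 MUT brain arrays (log2 relative to the array's 75th percentile), each grey line joining the values of 1 gene and each purple bar the median of the list. Arrays are separate mice with no order, and array 3 is the lowest for 12 and 16 of the 17 cerebellar and hindbrain genes in WT and MUT, and for 2 and 6 of the 16 forebrain genes.

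The standard deviation over the 3 brains had a median of 0.276 log2 units for the higher genes, 0.216 for the lower ones and 0.266 for the genes not called. Of the 3093 higher genes 502 had a range over 1 log2 unit among the brains, and brain 2 was the one farthest from the median for 249 of them, brain 1 for 180 and brain 3 for 73. Within slide 1, brain 1 lay above the mean of the livers for 99.9% of the higher genes and below it for 99.9% of the lower ones. Within slide 2, brains 2 and 3 lay above hearts 1 and 2 for 99.8% and below for 100%. These values use the arrays that made the calls, so they describe the calls and do not test them.

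Probes of 1 gene did not always go together. Of 4795 genes with 2 or more tested probes, 612 had all probes higher among 1182 with any, 599 had all lower among 1401 with any, and 45 had some in each direction. *Elavl4*, a neuronal Hu protein, was not called by its representing probe, which was 0.27 log2 units above the liver, while its other probe was called higher. The measured differences of that other probe, the smallest 6.35 log2 units, rest partly on values at background. Among the listed, paired and ranked genes that were not called higher, 31 had another probe that was.

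The same comparison in the 12 arrays of *Rap1* KI/KI mice rests on other animals. Each MUT array had the slide and age of the WT array of the same tissue and number, and the kits went by tissue. The limits given above for slide and kit therefore hold there too. There 3021 genes (17%) were higher in brain than in each other tissue and 3374 (18.9%) were lower, of 17807 tested. The lists shared 2708 higher genes, 87.6% of the WT list and 89.6% of the MUT list, and 2905 lower ones, 76% and 86.1%. No gene was called in opposite directions. In a limma test of whether the brain differences themselves differ between genotypes, none of 40361 probes was called against any tissue, with 809, 1976 and 1345 probes at an unadjusted p under 0.05 against liver, heart and muscle. Among the lists, 26 of the vesicle genes, 36 of the transcription factors and 18 of the fatty acid oxidation genes were called in the same direction in the MUT brain, against 27, 36 and 18 in WT, and 13 of the potassium channel genes against 17.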

How the data were processed

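Arrays were Agilent 1-colour mouse arrays, and per the file headers the authors extracted spot intensities with Feature Extraction 12.0.3.1; the deposited value is the background-subtracted processed intensity of a spot. A deposited table of the series holds z-scores, a score that was recomputed here within 0.005 from log10 intensities; it served as an alternative. From the intensities, log2 values minus each array's 75th percentile were computed after 3671 control spots were left out. Spots marked as outliers were set to missing, which left 72 values of tested probes missing on the WT arrays. No spot of a non-control probe was saturated. Of the probes 28331 carried a gene name, for 21368 genes, and 27350 had none. Probes well above background on all 3 arrays of 1 or more WT tissues were fitted with limma 3.58.1 in R 4.3.3 (data.table, version 1.17.8) as 4 tissue means over the 12 WT arrays, with Benjamini-Hochberg adjustment over all 38539 probes in each of the 3 brain contrasts. Promoters, profiles and figures were made with Python 3.11.15 and matplotlib 3.10.9.

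Genes named were the 15 highest and 10 lowest by the smallest difference among genes above background on 2 or more arrays of every tissue, up to 5 called members of each list, members called the other way, members not called (all where 5 or fewer, otherwise the 3 with the smallest p), the pairs, and genes whose sequence is printed; others are said to be chosen after their values were seen. Some genes that the rule names are not reported here or drawn by name, but they are part of the counts. The members and lists were chosen with earlier results of these data known. Replicate numbers pair the tissues because each mouse gave all 4. In 18 pairs of tissues of 1 mouse the deviations from the group means correlated between -0.224 and 0.276, median 0.039, and 2 were above 0.1.

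Tested on simulated data on 38467 probes, the brain calls recovered 2.99% of probes changed by 1 log2 unit, 56.7% at 2 and 87.9% at 4. They called 0 of 200 probes changed against the liver alone and 0 of 38067 unchanged ones. Only 67, 67 and 66 probes were changed in brain at the 3 sizes, whereas 22776 to 27296 probes differed in the real contrasts. The adjusted p threshold was therefore stricter in the simulation, and its rates do not carry over to the calls here. A call needs 3 contrasts, which leaves unchanged probes little room to be called. Alternatives were quantile normalization, normexp (offset 50, on the median foreground, since mean foreground is not used here), z-scores, other filters, trend and robust variances, the mouse or the slide as a block, all 24 arrays, pairs of tissues alone, a test against 1 log2 unit, averaged probes, and each array left out.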

Additional observations from a re-analysis of the deposited data

Results flagged for a closer look

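A panel of 616 genes was taken from the WT arrays: higher in brain and not above background on any of the 9 other WT arrays, so that its share outside the WT brain is 0 by that choice. In the MUT arrays, which had no part in it, 231 of the 616 genes were above background on the muscle array of mouse 3, 37.5%, with a median level of -6.18. The other 8 MUT arrays outside the brain had 1.95% to 16.7% above background and medians of -8.16 to -7.28. The MUT brains had 96.9%, 99.8% and 88.6%. Without that muscle array, a setting chosen after seeing the data, 5738 probes were higher in the MUT brain than in each other MUT tissue, and the test between genotypes still called 0 probes. The cause was not tested.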

How the results depend on the processing

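The main counts were 6091 probes higher and 7559 lower in the WT brain than in each tissue, and 27296, 22776 and 23946 probes differing from liver, heart and muscle. They stayed within 1.5 times of these values under quantile normalization, z-scores, normexp, no filter, other variance settings, all 24 arrays and pairs of tissues alone. With probes above background on all 12 arrays, 2412 probes and 1452 genes were higher, and 17783 and 15090 probes differed from liver and heart. There 138 distinct genes of the lists were called higher in place of 356, with lower calls not counted. Fewer probes are tested there. Tested against 1 log2 unit, 3821 probes were higher and 1951 lower, 2045 genes higher and 1123 lower, and 16249, 11631 and 12407 probes differed from liver, heart and muscle. With the slide as a block 4878 probes were lower; the cause was not tested. With the mouse as a replicate block 6128 probes were higher and 7368 lower, and no count moved by over 1.5 times.

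Leaving out 1 array gave 5545 (without brain 3) to 6982 (without brain 1) higher probes and 6111 to 7599 lower ones. It gave 25045 to 28079, 20226 to 23531 and 21517 to 24756 probes differing from liver, heart and muscle. It also gave 2904 to 3148 higher and 3117 to 3801 lower genes, and 348 to 359 distinct genes of the lists called higher.

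Of 407 named genes, 11 turned sign under a setting: after quantile normalization *Atp6v1g1* (0.39), *Dnm2* (0.031), *Dpf2* (0.15), *Gapdh* (0.33), *Gnai2* (0.32), *Hba-a1* (0.53), *Pgk1* (0.34) and *Tpi1* (0.63), with averaged probes *Dnm2* (0.10), *Elavl1* (0.76) and *Pcdh1* (0.35), and with the slide as a block *Ptbp1* (0.033). The calls lost most often were *Ptbp1* (16 settings), *Gapdh*, *Pgk1* and *Rcor1* (13 each), and *Hoxc6* and *Snap25* (9 each). With 3 arrays a tissue, a gene not called is not shown to be alike.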
